A study of Mus musculus with 20 samples.

Results

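The structural myelin protein genes described here are 8 genes, Mbp, Mobp, Mal, Cldn11, Mag, Mog, Cnp and Opalin, picked by name out of the 29200 rows of the count table, and all 8 were among the 12153 genes that passed the filter on low counts. RNA-seq was performed on whole cerebellum of 20 mice. The 4 groups of 5 mice each were WT/WT and 304Q/304Q animals at 2 months and at 12 months of age. All were C57BL6/N males. The 304Q/304Q mice carried in both copies of Atxn3 a knocked-in, interrupted CAA/CAG repeat expansion under the control of the gene's own regulatory elements, in a line that goes back to 1 founder, and the WT/WT littermates carried none. The sample labels name ataxin-2 as the wild-type gene, whereas the study describes Atxn3. The mutation was present in every cell type of these mice, and the tissue was not sorted.

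Oligodendrocytes wrap axons of the central nervous system with myelin, a stack of membrane layers that allows fast conduction. In compact myelin the layers are held tightly together by basic proteins on their inner faces, while cytoplasm remains in the loops at the edge, along the axon and in narrow channels. Different structural proteins reside in these compartments, and mature oligodendrocytes make their mRNAs in large amounts. In the cerebellum, myelin lies mainly in the white matter and around the axons that enter and leave the cortex.

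Mbp (myelin basic protein) binds the cytoplasmic faces of compact myelin together, and Mobp (myelin-associated oligodendrocyte basic protein) is a small basic protein of the same compartment. Mal is a proteolipid involved in the sorting of membrane proteins, and Cldn11 forms the tight junctions between the layers. Mag sits at the membrane that faces the axon, Mog at the outermost surface of the sheath, and Cnp, an enzyme of cyclic nucleotide metabolism, in the channels that hold cytoplasm. Opalin is a transmembrane glycoprotein of mature oligodendrocytes.

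The stretches before the start of 4 members are shown here, because Mobp and Mal were the members with the lowest 304Q/304Q levels relative to WT/WT at both ages, and Mag and Cnp, which did not pass the test between genotypes, serve as comparison. They were taken from the RefSeq promoter table of build GRCm38.p6, cut at the first base before the more upstream of the RefSeq and GENCODE starts, and they read 5′ to 3′ in the direction of the gene. Capitals mark the letters ACAAAG or their reverse complement CTTTGT, a core bound by Sox proteins such as Sox10, the transcription factor of the oligodendrocyte lineage.
Mobp, chr9:120149492-120149706, plus strand: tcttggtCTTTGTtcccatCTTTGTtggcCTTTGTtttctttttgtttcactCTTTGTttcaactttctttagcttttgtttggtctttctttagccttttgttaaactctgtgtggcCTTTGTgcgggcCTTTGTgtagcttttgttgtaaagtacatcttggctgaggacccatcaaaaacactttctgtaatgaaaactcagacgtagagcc
Mal, chr2:127656696-127656945, minus strand: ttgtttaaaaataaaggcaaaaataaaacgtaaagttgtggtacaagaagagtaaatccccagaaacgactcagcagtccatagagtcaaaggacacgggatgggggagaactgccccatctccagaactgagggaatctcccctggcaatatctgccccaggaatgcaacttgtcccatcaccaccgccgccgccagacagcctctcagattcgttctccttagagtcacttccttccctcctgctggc
Mag, chr7:30914874-30915113, minus strand: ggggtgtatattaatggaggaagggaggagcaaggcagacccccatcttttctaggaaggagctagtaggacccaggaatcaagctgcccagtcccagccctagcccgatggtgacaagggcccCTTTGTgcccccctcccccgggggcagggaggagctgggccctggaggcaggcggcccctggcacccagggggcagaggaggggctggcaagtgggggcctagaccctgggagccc
Cnp, chr11:100574689-100574903, plus strand: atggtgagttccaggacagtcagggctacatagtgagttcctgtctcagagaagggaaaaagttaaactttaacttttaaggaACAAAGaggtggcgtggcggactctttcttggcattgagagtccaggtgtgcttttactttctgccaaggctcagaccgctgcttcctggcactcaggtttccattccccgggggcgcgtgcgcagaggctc

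Upstream of Mobp, the letters CTTTGT stood 6 times within 215 bases, between 208 and 85 bases before the start. In the whole RefSeq window, which runs from 250 bases before to 50 after a start, 18.7% of the 32851 mouse promoters held at least 1 match on either strand, and no promoter held more than the 6 of Mobp. Mal had no match. Mag and Cnp each had 1 match, and each also held 1 copy of CTGGCAC, a core letter sequence bound by Myrf (myelin regulatory factor), which 5.01% of all promoters held. In the whole window, Opalin held 2 matches of ACAAAG and 1 of CTGGCAC, while Mog and Cldn11 held neither. Another RefSeq window of Mag, whose start lies 552 bases from the GENCODE start, also held neither. These matches describe letters in the sequence and were not tested as binding sites. No entry was used for Mbp.

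In GRCm38, with the GENCODE M21 annotation, Mbp (ENSMUSG00000041607) lies on chromosome 18 from 82475146 to 82585637, Mobp (ENSMUSG00000032517) on chromosome 9 from 120149707 to 120181484, Mal (ENSMUSG00000027375) on chromosome 2 from 127633226 to 127656695 and Cldn11 (ENSMUSG00000037625) on chromosome 3 from 31149920 to 31164324. Mag (ENSMUSG00000036634) lies on chromosome 7 from 30899176 to 30914873, Mog (ENSMUSG00000076439) on chromosome 17 from 37010743 to 37023398, Cnp (ENSMUSG00000006782) on chromosome 11 from 100574904 to 100591729 and Opalin (ENSMUSG00000050121) on chromosome 19 from 41061710 to 41077113. All 8 are protein coding and no pair of them shares a chromosome. Mobp overlaps a transcript on its own strand, Gm38642, over 79 exon bases, and Cnp overlaps Dnajc7 on the opposite strand over 154 exon bases. How the counting treated strand is not given in the sources used here, so reads from these shared bases cannot be assigned with certainty.

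Between 11385380 and 27636687 reads per mouse were counted on genes, and each of the 8 members had between 83 and 79051 of them. Values below are normalized read counts, that is, counts scaled by the TMM method to the mean library size, and a gene was called when its p from the quasi-likelihood test of edgeR, adjusted after Benjamini-Hochberg over all genes tested, was at most 0.05. Atxn3, the modified gene, was present in all mice, with 158.1 to 240.5 normalized counts in 304Q/304Q and 239.8 to 331.9 in WT/WT mice at 2 months (log2 fold change −0.54, SE 0.115, adjusted p = 0.0916) and with 180.6 to 220.1 and 201.5 to 234 at 12 months (log2 fold change −0.13, SE 0.117, adjusted p = 0.51). The repeat itself is not visible in gene counts, so this value does not check the genotype.

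At 2 months, Mal fell in 304Q/304Q mice. It was the only one of the 8 members that was called lower, where 0.0411% of all genes tested were. Its normalized counts were 2560, 2626, 2401, 2431 and 2636 in the WT/WT mice and 2060, 1990, 1809, 1837 and 1940 in the 304Q/304Q mice. Each 304Q/304Q mouse was below each WT/WT mouse. The log2 fold change was −0.39 (SE 0.0609, adjusted p = 0.00668), a level of 0.762 times that of WT/WT, and Mal ranked 2 among all genes by p-value.

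Mobp was the other member whose groups did not overlap at 2 months. The WT/WT mice had 11130, 12410, 11010, 10810 and 11030 normalized counts of Mobp, and the 304Q/304Q mice had 9390, 9390, 8610, 8730 and 9024. Thus, 2 of the 8 members had every 304Q/304Q mouse under every WT/WT mouse, as did 0.551% of all genes. For Mobp, the log2 fold change was −0.32 (SE 0.0657, 95% interval −0.46 to −0.19) and the adjusted p of 0.0665 missed the threshold. DESeq2, with an adjusted p of 0.00524, and 4 other settings of the fit called Mobp at this age, while without the WT/WT replicate 2 the adjusted p was 0.273. The call for Mobp at 2 months therefore depended on the method, whereas its log2 fold change lay between −0.34 and −0.28 in all settings.

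For Mbp, the most abundant member, normalized counts at 2 months were 42030, 46470, 41170, 45930 and 41780 in WT/WT and 40580, 41870, 37320, 36430 and 35580 in 304Q/304Q mice. The groups overlapped in 1 mouse only, 304Q/304Q replicate 2. The log2 fold change was −0.18 (95% interval −0.34 to −0.02, adjusted p = 0.86). Cldn11 had a log2 fold change of −0.12 (95% interval −0.38 to 0.14), with 964.4 to 1498 normalized counts in WT/WT and 1010 to 1219 in 304Q/304Q mice.

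Mag, Cnp, Mog and Opalin were not called at 2 months. Log2 fold changes were −0.05 for Mag (95% interval −0.20 to 0.11), −0.05 for Cnp (95% interval −0.18 to 0.09) and 0.05 for Mog (95% interval −0.17 to 0.28). Opalin was the only member above 0.2, at 0.22 (95% interval −0.18 to 0.62). The groups of these 4 genes overlapped.

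**Figure D1:**
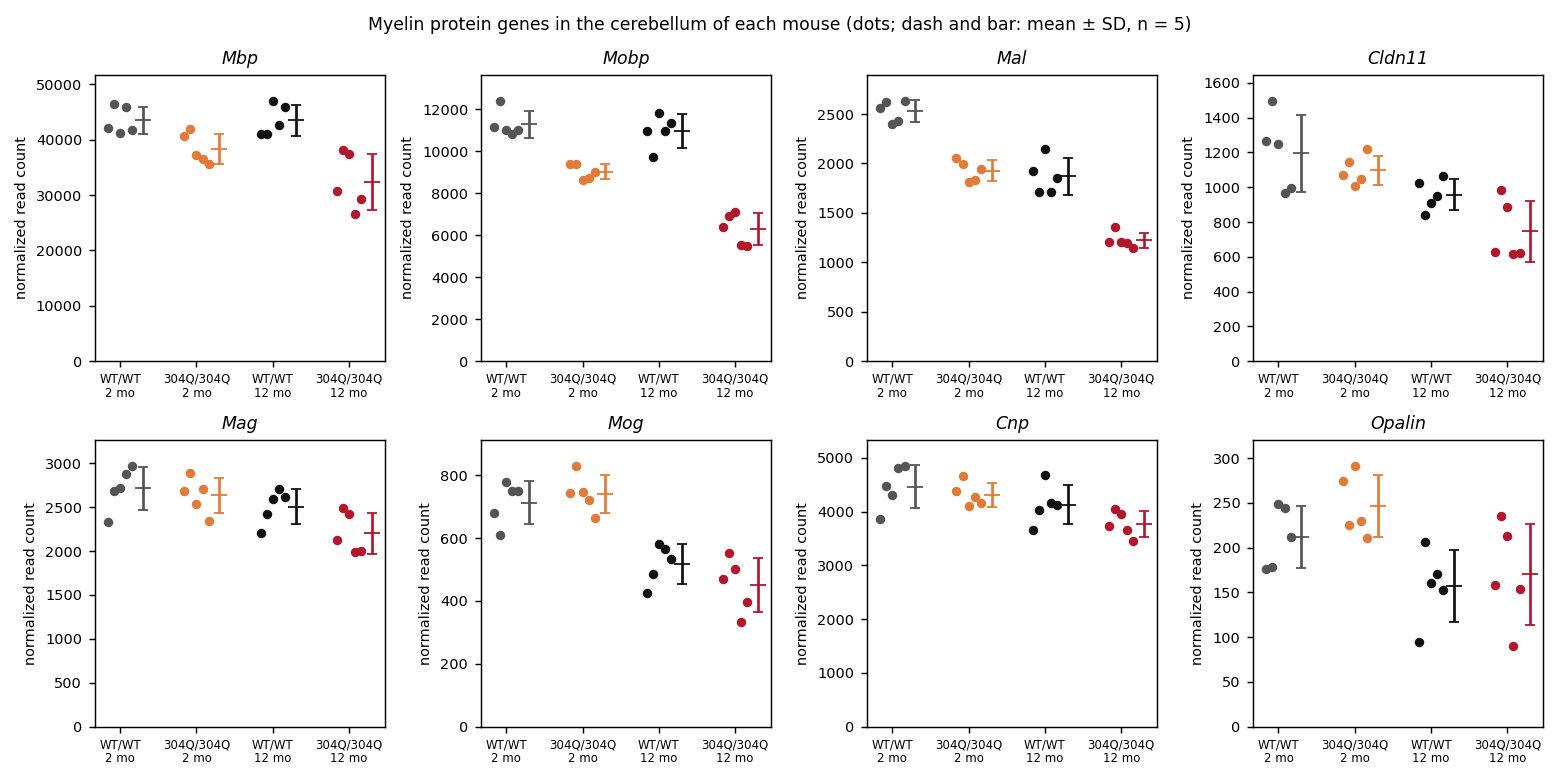
Normalized read counts (y axis, from 0) of each member in each of the 20 mice, in the 4 groups (x axis). Dots are mice, the dash and bar beside them give mean ± SD (n = 5). Mal at 2 months lies at 2401 to 2636 in WT/WT and at 1809 to 2060 in 304Q/304Q mice, whereas the dots of Mag, Cnp, Mog and Opalin overlap between the genotypes at both ages.

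At 12 months, Mobp, Mal and Mbp fell in 304Q/304Q mice. These were 3 of 8 members, where 7.3% of all genes tested were called lower. Mobp and Mal also passed a log2 fold change of −0.5, which 1.83% of all genes did in this direction. In the same 3 members the groups did not overlap, as in 5.43% of all genes. The median log2 fold change of the 8 members was −0.28, beside −0.004 over all genes. RNA of whole tissue does not tell whether there were fewer oligodendrocytes or less of these mRNAs per oligodendrocyte.

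Mobp had the largest fall of the members. In WT/WT mice of 12 months its normalized counts were 10960, 9703, 11840, 10980 and 11340, and in 304Q/304Q mice they were 6384, 6903, 7110, 5557 and 5505. The highest 304Q/304Q mouse was well under the lowest WT/WT mouse. Mobp fell by 42.6%, a log2 fold change of −0.80 (SE 0.0661, adjusted p = 1.3e-08).

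Mal had 1925, 1709, 2150, 1708 and 1854 normalized counts in the WT/WT mice of 12 months and 1204, 1354, 1205, 1198 and 1148 in the 304Q/304Q mice. Here, 4 of the 5 knock-in mice lay close together and replicate 2 stood above them, still under all WT/WT mice. Mal fell by 34.6%, with a log2 fold change of −0.61 (SE 0.062, adjusted p = 2.53e-07).

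Mbp had 40970, 40980, 47060, 42740 and 45880 normalized counts in WT/WT and 30680, 38090, 37360, 26620 and 29240 in 304Q/304Q mice at 12 months. The 304Q/304Q mice spread more widely, with a coefficient of variation of 15.7% against 6.46% in WT/WT mice, and their replicates 2 and 3 came near the WT/WT mice without reaching them. The log2 fold change was −0.43 (SE 0.076, adjusted p = 0.000426), so that Mbp fell by 25.6%.

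Cldn11 followed with a log2 fold change of −0.36 (95% interval −0.62 to −0.10) and did not pass the test (adjusted p = 0.0639), while DESeq2 called it (log2 fold change −0.35, adjusted p = 0.0356). Its values were 1023, 840.1, 910.4, 950.4 and 1064 in WT/WT and 630.7, 982.1, 887.3, 615.7 and 621 in 304Q/304Q mice. Replicates 2 and 3 of the knock-in lay within the WT/WT range and the other 3 were far below it. Cldn11 was called when either of these 2 mice was left out (adjusted p between 0.0132 and 0.174 over the 20 libraries left out in turn).

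Mog, Mag, Cnp and Opalin were not called at 12 months. Mog had a log2 fold change of −0.20 (95% interval −0.43 to 0.03, adjusted p = 0.242), and Mag one of −0.19 (95% interval −0.34 to −0.03, adjusted p = 0.111). Cnp stood at −0.13 (95% interval −0.27 to 0.00, adjusted p = 0.192), with 3662 to 4682 normalized counts in WT/WT and 3446 to 4044 in 304Q/304Q mice. In all 4 genes the groups overlapped. Opalin, the lowest member in abundance, had 94.62, 206.1, 160.3, 170.4 and 153.1 normalized counts in WT/WT and 158.4, 235.8, 212.5, 90.45 and 153.5 in 304Q/304Q mice. Its log2 fold change of 0.11 carried an interval of −0.31 to 0.53, which includes a fall as large as that of Cnp or Mag, so that Opalin could not be told apart from either.

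**Figure D2:**
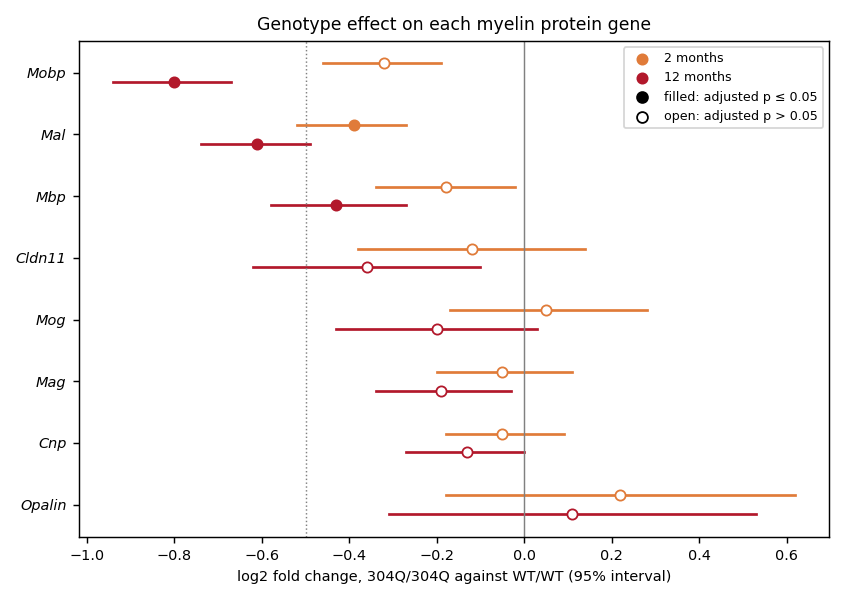
Log2 fold change of 304Q/304Q against WT/WT (x axis) for each member (y axis) at 2 months (orange) and 12 months (red), with 95% intervals from the edgeR fit. Filled points have an adjusted p of at most 0.05, the solid line marks no change and the dotted line −0.5. Mobp moves from −0.32 to −0.80 and Mal from −0.39 to −0.61, while the points of Cnp and Mag stay between −0.19 and −0.05.

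The difference between the genotype effects at 12 and 2 months was tested as an interaction. Mobp was the only member called, where 1.31% of all genes tested were called in this direction. Its interaction was −0.48 on the log2 scale (SE 0.0929, adjusted p = 0.0051). For Mal it was −0.22 (95% interval −0.40 to −0.04, adjusted p = 0.213) and for Mbp −0.25 (95% interval −0.47 to −0.02, adjusted p = 0.269). A widening of the genotype difference in Mal or Mbp between 2 and 12 months was thus not established by this test. The estimates of the other 5 members lay between −0.26 and −0.09.

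Age alone changed some members in WT/WT mice. Mog and Mal fell between 2 and 12 months, 2 of 8 members, where 5.42% of all genes were called lower with age. Mog decreased by 27.3% (log2 fold change −0.46, SE 0.109, adjusted p = 0.00884) and Mal decreased by 26.2% (−0.44, SE 0.0611, adjusted p = 7.93e-05). Mbp and Mobp had log2 fold changes of 0.00 (95% interval −0.15 to 0.16) and −0.04 (95% interval −0.18 to 0.10). The WT/WT mice at 12 months had 1708 to 2150 normalized counts of Mal, and the 304Q/304Q mice had 1809 to 2060 at 2 months, so that the young knock-in mice lay within the range of the old WT/WT mice.

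In 304Q/304Q mice, 5 of 8 members fell with age, where 4.18% of all genes were called lower. The log2 fold changes were −0.72 for Mog (adjusted p = 0.000103), −0.66 for Mal (adjusted p = 1.47e-07), −0.56 for Cldn11 (adjusted p = 0.00561), −0.52 for Mobp (adjusted p = 1.16e-05) and −0.26 for Mag (adjusted p = 0.036). Mag is the least firm of them, since the adjusted p rose to 0.123 in the setting with 1 library left out that moved it most. The remaining members had values of −0.24 for Mbp (adjusted p = 0.0513), −0.20 for Cnp (adjusted p = 0.0725) and −0.54 for Opalin (adjusted p = 0.105). The comparisons of age and of genotype share groups and are given side by side for this reason. Mog moved with age in both genotypes and was not called between genotypes at either age, while Mobp was not called with age in WT/WT mice.

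To test whether single members moved more or less than the others, the log2 CPM (log2 of counts scaled to a common library size) of each member was set against the mean of the other 7 in the same mouse. A factor shared by all 8 members cancels in such a ratio. Of the 16 ratios, 8 members at 2 ages, 7 had an adjusted p of at most 0.05 in a 2-sided exact permutation test of 5 against 5 mice (smallest possible p = 0.00794, Benjamini-Hochberg over the 16).

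In the young mice, the ratio of Mobp was lower by −0.25 on the log2 scale in 304Q/304Q mice, from 2.37 ± 0.10 to 2.12 ± 0.05 (SD, n = 5 each, exact p = 0.00794, adjusted p = 0.0317). The ratio of Mal differed by −0.33, from −0.09 ± 0.10 to −0.43 ± 0.07 (SD, n = 5 each, exact p = 0.00794, adjusted p = 0.0317). In both ratios the groups did not overlap. The ratio of Mog was higher in 304Q/304Q mice, by 0.18 (exact p = 0.0159, adjusted p = 0.0363), with overlapping groups. Mog itself had a log2 fold change of 0.05 at this age (adjusted p = 0.973 in the quasi-likelihood test). Its reference includes Mal and Mobp, with log2 fold changes of −0.39 and −0.32. The higher ratio therefore does not show a rise of Mog. The ratios of Mobp and Mal kept an adjusted p of at most 0.0423 whichever of the 20 libraries was left out, whereas that of Mog reached 0.0952. The reference mattered more. Against the median of the other 7 members in place of their mean, Mal stayed called at −0.35, but the ratio of Mobp at 2 months turned to 0.05 and was not called. For Mobp this median was the level of Mal, or of Mag in WT/WT replicate 1. It thus set Mobp against a member that had itself fallen at this age.

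At 12 months, the ratio of Mobp differed by −0.54, from 2.60 ± 0.12 to 2.06 ± 0.10 (SD, n = 5 each, exact p = 0.00794, adjusted p = 0.0317), and that of Mbp by −0.12, from 4.87 ± 0.06 to 4.75 ± 0.03 (SD, n = 5 each, exact p = 0.00794, adjusted p = 0.0317). The groups did not overlap in either. With the median as reference neither was called, since Mobp stood at −0.20 and Mbp turned to 0.17, so that the direction of the Mbp ratio depended on the reference. For Mobp and Mbp this median was in every mouse of 12 months the level of Mal, which itself fell at this age (log2 fold change −0.61). The ratios of Cnp and Mag were higher in 304Q/304Q mice, by 0.23 and 0.17 (exact p = 0.0159 and adjusted p = 0.0363 for each), with overlapping groups. Since every ratio uses the other members as its reference, a lower ratio of Mobp raises those of Cnp and Mag, and the 16 values are not independent. Mal differed by −0.31 at this age (exact p = 0.0317, adjusted p = 0.0635), and Cldn11 by −0.05 (exact p = 0.683). Leaving out 1 library of 12 months brought the number of ratios called down to 3 in 3 cases, WT/WT replicate 1 and 304Q/304Q replicates 1 and 5. With the mean as reference, Mobp at both ages and Mal at 2 months were called in all of these.

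**Figure D3:**
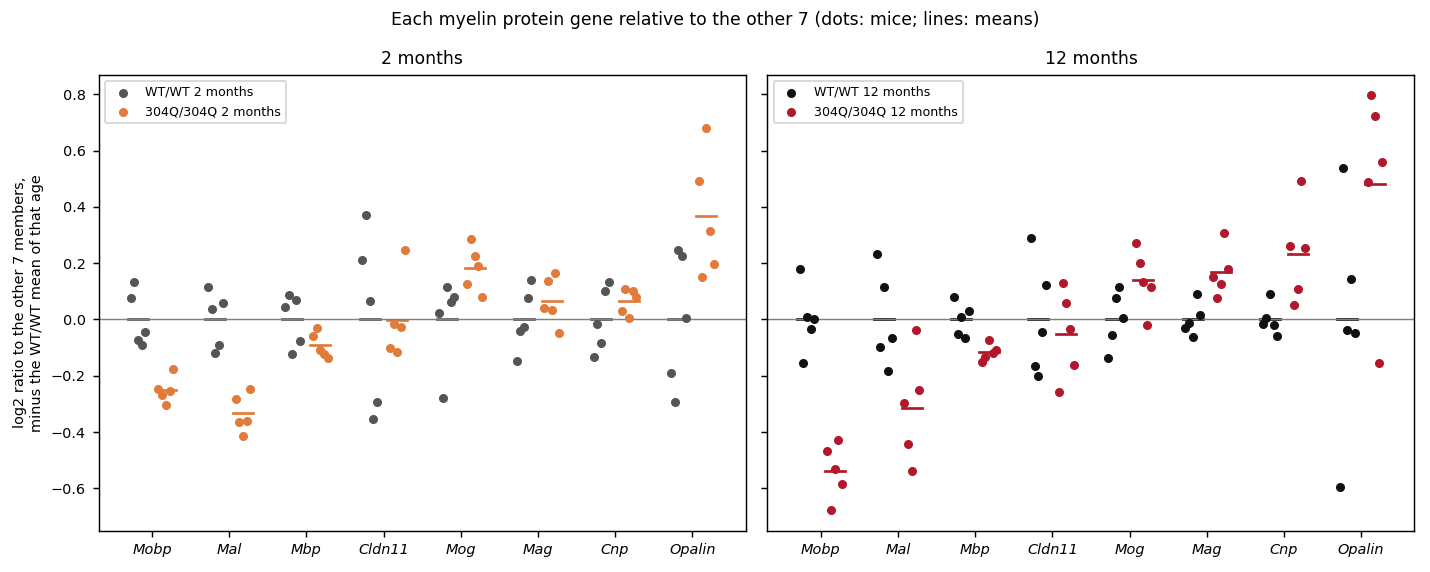
Log2 ratio of each member (x axis) to the mean of the other 7 in the same mouse, minus the WT/WT mean of that age (y axis), at 2 months (left) and 12 months (right). Dots are mice and lines are group means. Mobp lies under all WT/WT mice at both ages, with mean differences of −0.25 and −0.54, and the means of Cnp, Mag, Mog and Opalin lie above 0 at both ages.

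Levels between genes were compared per length, as RPKM on the summed exon length of each gene. In WT/WT mice of 2 months, Mbp stood at 361 ± 20.9 RPKM, Mobp at 116 ± 6.62 and Cnp at 86.4 ± 7.75 (SD, n = 5). Mal followed at 64.1 ± 2.77, Mag at 47 ± 4.23 and Cldn11 at 45 ± 8.28, then Mog at 29.5 ± 2.83 and Opalin at 5.06 ± 0.833 RPKM (SD, n = 5). Of the neighbours in this order, Mag and Cldn11 were the one pair whose ranges overlapped. The exon length of Mbp, 8469 bases, includes exons of longer transcripts of the same locus, which lowers its RPKM.

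In 304Q/304Q mice this order was different at 12 months. Mobp had 64.7 ± 7.64 RPKM and Cnp 72.8 ± 4.61 (SD, n = 5), with overlapping ranges of 56.6 to 73.1 and 66.7 to 78.2, whereas WT/WT mice of that age had 99.7 to 122 RPKM of Mobp and 70.8 to 90.6 of Cnp. Mal, at 31 ± 1.97 RPKM, was below Mag, at 38.1 ± 4.08 (SD, n = 5), and the ranges met at 34.3. In WT/WT mice of 12 months, Mal at 47.4 ± 4.63 and Mag at 43.3 ± 3.44 RPKM (SD, n = 5) overlapped.

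**Figure D4:**
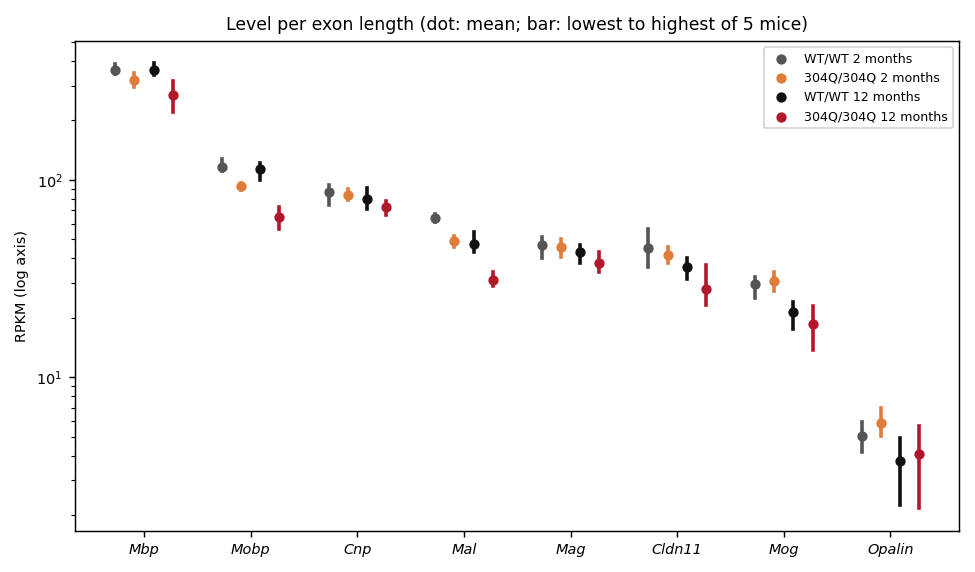
RPKM on exon length (y axis, log scale) of each member (x axis) in the 4 groups. Dots are means and bars run from the lowest to the highest of 5 mice. The bars of Mobp in 304Q/304Q mice of 12 months (56.6 to 73.1 RPKM) reach into those of Cnp (66.7 to 78.2), while in WT/WT mice of 12 months Mobp lies above Cnp.

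Within groups, most members varied together from mouse to mouse. After subtraction of the group mean, the log2 CPM of Mbp had a Pearson correlation of 0.895 over the 20 mice with the mean of the other 7, and that of Mog 0.823. Mal (0.332) and Cldn11 (0.361) had the lowest values. Among pairs, Mag and Cnp (0.852) and Mbp and Mobp (0.834) were the most alike, and Mal and Opalin (−0.075) the least. These values describe 20 mice whose members were measured in the same libraries. Outside the members, the tested gene most like the mean of the 8 was Galnt6, a glycosyltransferase (r = 0.917, Spearman's rho 0.844, and 0.823 without the 2 mice farthest from the median). It was followed by Lamp1, Sox10, Dhx40, Plekhb1, Bcas1, 6330403K07Rik, Eral1, Slc17a6 and Sorbs3, with r between 0.846 and 0.788. For Slc17a6 the likeness rested on few mice, since rho was 0.397 and r without the 2 farthest mice 0.525, and for Eral1 r dropped to 0.588 without them. These 10 genes had the highest r of all genes tested, and Plekhb1 was the one of them called between genotypes at 12 months (log2 fold change −0.29, adjusted p = 0.00799). Galnt6 and Sox10, which followed the members within groups, had log2 fold changes of −0.13 and −0.10 at 12 months and were not called.

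Other genes of mature oligodendrocytes and the myelin sheath were examined as a list of 25. This list and those below were chosen with earlier results of these data known, so their counts are no independent test. At 12 months 9 of the 25 fell, where 7.3% of all genes tested were called lower. None was called higher by edgeR at this age, with a median log2 fold change of −0.22, and at 2 months it called none. An unadjusted p under 0.05 was reached at 2 months by 5 of the 25, beside 5.55% of all genes tested. These were Car2, Ermn, Klk6, Aspa and Tspan2, all with log2 fold changes below 0. DESeq2 called 1, Car2 (adjusted p = 0.00378). In edgeR, Car2 had a log2 fold change of −0.33 (adjusted p = 0.0642) with overlapping groups, beside −0.32 (adjusted p = 0.0665) for Mobp. Apart from Klk6, these 5 genes are named with their values known. Klk6, a secreted serine protease, had the lowest 12-month value (log2 fold change −0.98, adjusted p = 8.47e-05), with 121 to 174.9 normalized counts in 304Q/304Q and 237.1 to 340.9 in WT/WT mice. Bcas1, a gene of early myelinating cells, had the highest, 0.07 (adjusted p = 0.573).

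Myelin is rich in galactolipids, and of 4 genes of their synthesis 1 fell at 12 months, where 7.3% of all genes tested were called lower. This was Fa2h, which hydroxylates fatty acids for these lipids, with a log2 fold change of −0.64 (adjusted p = 1.63e-05) and 439.3 to 636.6 normalized counts in 304Q/304Q against 746.9 to 893.4 in WT/WT mice. Cers2 was the highest of the 4, at −0.07 (adjusted p = 0.588). Of 10 tested transcription factors of the lineage, Myrf fell (log2 fold change −0.21, adjusted p = 0.041) with overlapping groups, and Olig2 stood at 0.30 (adjusted p = 0.205). This 1 gene of 10 is near the 7.3% of all genes called lower, and no factor was called with several other settings, such as the GC trend removed. Among 11 tested genes of precursor and premyelinating cells, edgeR and DESeq2 called none at 12 months and 2, Gpr17 and Enpp6, had an unadjusted p under 0.05, as had 27.3% of all genes tested. They ranged from −0.13 for Vcan to 0.42 for Enpp6 (adjusted p = 0.154). At 2 months neither tool called a gene of these 3 lists, and unadjusted p-values under 0.05 were found for 2 (Ugt8a and Fa2h), 1 (Sox8) and 0 genes.

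**Figure D5:**
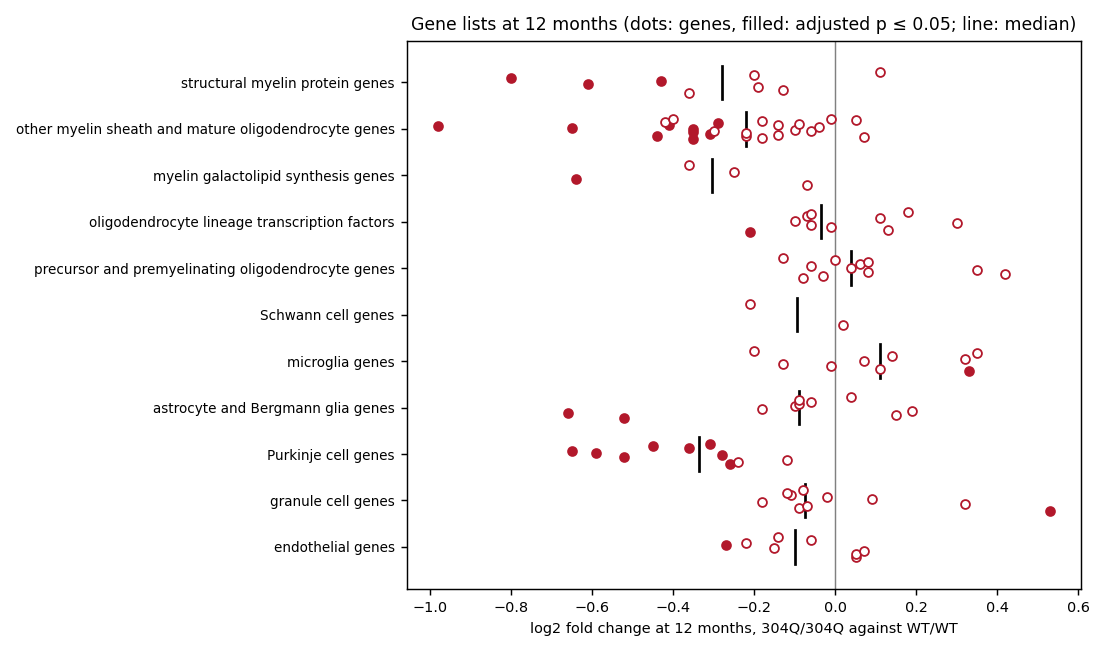
Log2 fold change at 12 months (x axis) of every tested gene in each list (y axis). Dots are genes, filled where the adjusted p is at most 0.05, and black lines are medians. The members (median −0.28) and the other mature oligodendrocyte genes (median −0.22) lie mostly left of 0, as do the Purkinje cell genes (median −0.34), while precursor genes (median 0.04) lie on both sides.

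Markers of other cells moved with the members in part. Of 10 Purkinje cell genes, 8 fell at 12 months, where 7.3% of all genes tested were called lower. Pcp4 was lowest at −0.65 (adjusted p = 0.00027), and the summed level of the list was 80800 to 87300 normalized counts in 304Q/304Q against 99300 to 109000 in WT/WT mice. At 2 months none was called by edgeR or DESeq2, and none had an unadjusted p under 0.05. The part of this in the results for the members was not tested. Among astrocyte and Bergmann glia genes, 2 of 10, Gdf10 and Aldh1l1, fell at 12 months, beside the same 7.3% of all genes. Gdf10 was lowest (−0.66) and Gfap highest (0.19, adjusted p = 0.176). Of 9 tested microglia genes, 1, C1qa, rose at 12 months, where 5.23% of all genes were called higher, and the list ran from −0.20 for Tmem119 to 0.35 for P2ry12, neither of them called. Of 8 endothelial genes, Ly6c1 fell (−0.27, adjusted p = 0.0474) and Emcn was highest (0.07). This is near the 7.3% of all genes, and no endothelial gene was called with several other settings, such as DESeq2's size factors. Calb2, in the list of granule cell genes, was higher in 304Q/304Q mice at both ages (log2 fold change 0.37, adjusted p = 0.0148, and 0.53 at 12 months), and was the one gene called higher at 2 months (0.00823% of all genes tested), while Fat2 was lowest at 12 months (−0.18, adjusted p = 0.0975).

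The tissue sampled was checked in the same way. Of the Schwann cell genes, which mark nerve roots, 2 had enough counts for a test, Fbln5 (−0.21) and Drp2 (0.02), and neither was called. Hox genes of the hindbrain summed to 9.96 to 21.1 normalized counts per mouse in 304Q/304Q and 1.06 to 16.6 in WT/WT mice of 12 months. At 2 months the sums were 2.04 to 10.3 and 4.16 to 7.98. None of these genes had enough counts for a test. Choroid plexus genes differed widely between libraries of 3 groups, with a summed level of 335 to 24400 in 304Q/304Q mice of 2 months, 432 to 30000 in WT/WT and 386 to 21400 in 304Q/304Q mice of 12 months, beside 334 to 425 in WT/WT mice of 2 months. With this level as a covariate, a setting chosen after seeing the data, the same members were called between genotypes at both ages. Clic6 (−0.34) and Otx2 (0.25) were the lowest and highest choroid plexus genes at 12 months, and neither was called.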

How the data were processed

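RNA of cerebellar tissue was polyA-enriched, made into libraries with a stranded kit and sequenced as paired-end reads. The authors aligned the reads with STAR (version 2.4.5b per the labels) to GRCm38, obtained gene counts from Rsubread, and deposited these raw read counts for 29200 Ensembl IDs with no scaling. Of these, 29150 IDs were found in GENCODE M21.

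From the deposited counts, TMM-scaled libraries were fitted with edgeR 4.0.16 (R 4.3.3) in 1 quasi-likelihood model of 4 groups, over the 12153 genes whose mean over all libraries reached 50 counts, and p-values were Benjamini-Hochberg adjusted over all of them. The study itself used DESeq2 with surrogate variables. Log2 CPM used a prior count of 2, RPKM the union exon length. The common biological coefficient of variation was 0.113, which outweighs counting error at the counts of most members. For ratios between members, 2-sided exact permutation was used. The counts of replicates differed beyond sampling noise (chi-square divided by its degrees of freedom at least 4.43).

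Alternatives were DESeq2 1.42.0, its size factors, other count filters, 3 surrogate variables (sva 3.50.0), fits of 2 groups alone, a replicate block, removal of each library's GC trend, another reference or prior count for the ratios, and each library left out. The GC trend was not alike in the genotypes. Its spread on the log2 scale was 0.16 to 0.405 in WT/WT and 0.028 to 0.179 in 304Q/304Q mice at 12 months. At 2 months it was 0.134 to 0.39 and 0.05 to 0.278. Choroid plexus level as a covariate was added after seeing the data. The members and gene lists were chosen with earlier results of these data known. Named genes are all members, Atxn3, the lowest and highest gene of each list at 12 months, list genes called at 2 months, and the 10 genes most correlated with the members. The fits were checked on counts with known answers. A few genes are left out of the results.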

Additional observations from a re-analysis of the deposited data

Results flagged for a closer look

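Of 32 groups of 5 mice (8 members in 4 groups), 2 had a mouse far from the others, and chance flags about 1 group in 20. For Mobp, WT/WT replicate 2 of 2 months was highest with 12410 normalized counts, beside a group median of 11030, a gap of 0.8 of the group's range (limit 0.71). Without this mouse the log2 fold change of Mobp at 2 months was −0.28 and its adjusted p 0.273. For Mal, 304Q/304Q replicate 2 of 12 months was highest with 1354 normalized counts, beside a median of 1204, a gap of 0.723 of the range. It still lay under every WT/WT mouse.

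The genotype effect on Mobp differed between the ages, by −0.48 on the log2 scale (12 minus 2 months, adjusted p = 0.0051, edgeR's quasi-likelihood interaction test). Without any 1 of the 20 libraries this value lay between −0.53 and −0.44, with an adjusted p between 0.00243 and 0.0133.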

How the results depend on the processing

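Mal was called at both ages, and Mobp and Mbp at 12 months, in every setting. At 2 months, 2 members (Mobp and Mal) in place of 1 were called with DESeq2's Wald test, no filter on low counts, 3 surrogate variables in edgeR, only the groups compared, or the GC trend removed, and 1 to 2 when 1 library was left out. The count was 2 without 304Q/304Q replicate 3 or 5 of 12 months. At 12 months, 3 surrogate variables in edgeR or DESeq2 called 5 members, with Mag and Cldn11 added, DESeq2's Wald test, no filter or the replicate block called 4, with Cldn11 added, and leaving out 1 library gave 3 to 4. For age, 4 members were called in WT/WT mice with surrogate variables in DESeq2 or the GC trend removed, and 8 in 304Q/304Q mice with surrogate variables in edgeR. The interaction was called for Mobp alone in every setting. Of the other gene lists at 12 months, the number called moved between 8 and 10 for Purkinje cell, 8 and 11 for mature oligodendrocyte, 2 and 5 for astrocyte, 1 and 4 for granule cell, 0 and 2 for microglia, 1 and 2 for galactolipid genes, and 0 and 1 for precursor (1 without 304Q/304Q replicate 1), transcription factor and endothelial genes, and at 2 months between 0 and 1 for mature oligodendrocyte and choroid plexus and 0 and 3 for granule cell genes. The causes of these shifts were not tested.

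Same-numbered mice of the 2 genotypes did not deviate together (correlations −0.323 to 0.049 at 2 months and −0.182 to 0.077 at 12 months). Between the ages, correlations of same-numbered mice were −0.158 to 0.551 in WT/WT and −0.121 to 0.173 in 304Q/304Q mice. In each genotype, 2 of these 5 pairs were over 0.1. Whether same-numbered mice shared a litter or a preparation was not tested. With the replicate block, 1 member was called at 2 months, 4 at 12 months, 2 and 6 with age in WT/WT and 304Q/304Q mice, and 1 for the interaction. Of the ratios, 0 were called with the block, since 5 pairs cannot give a p under 0.0625. Leaving out 1 library gave 3 to 10 ratios called. With the median of the other members as reference, which is the level of a single gene, 7 ratios were called, but not the same 7. Cnp and Mag at 2 months were added, at 0.32 and 0.35, while Mobp was not called at either age. Mbp turned to 0.18 at 2 and 0.17 at 12 months, Mobp to 0.05 at 2 months and Mog to −0.03 at 12 months. For Mbp and Mobp the single gene was Mal, or Mag in WT/WT replicate 1 of 2 months.

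Values near 0 changed sign. The age effect on Mbp in WT/WT mice was −0.01 with a filter at a mean of 10 counts, 0.00 with no filter, −0.04 with surrogate variables in edgeR and in DESeq2, −0.03 with the GC trend removed and −0.01 with the choroid plexus covariate, and −0.03 to 0.03 without 1 library. The interaction of Opalin was 0.07 and 0.09 with surrogate variables in edgeR and DESeq2 and −0.26 to 0.05 without 1 library, and that of Cnp 0.00 with the GC trend removed. Without 1 library, Opalin at 12 months ran from −0.04 to 0.27, the age effect on Mobp in WT/WT mice from −0.07 to 0.00, and the ratio of Cldn11 from −0.09 to 0.09 at 2 and from −0.10 to 0.02 at 12 months. Opalin, with the fewest counts, had the widest intervals, which limits what can be said of it.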
